A study of Mus musculus with 15 samples.

Results

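Neuropeptides made by mouse lung tumours were followed here through a list of 10 genes: Resp18, Calcb, Calca, Cartpt, Grp, Nmb, Gal, Npy, Sst and Tac1. Probe sets annotated to 9 of them were found, 10 probe sets among 45037 (9 genes among 18193), and Calca was not analysed here. The list was made by name, of peptides known from neuroendocrine cells and neurons and the granule protein Resp18, with earlier results of these data known. The samples came from mice that model small cell lung cancer, an aggressive neuroendocrine tumour of the airways, and bulk tissue RNA was read on 15 Affymetrix arrays.

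Tumours had been started by an adenovirus that carries the Cre recombinase, instilled through the nose, so that floxed alleles were deleted in the cells the virus entered. The 3 Rb/p53/p130 tumours (numbered 11 to 13 in the labels) had lost Rb, p53 and the Rb relative p130 and were taken 6 months after infection. The 10 Rb/p53 tumours (1 to 10) had lost Rb and p53 and were taken 8 to 12 months after infection. The reference was 2 normal lungs (1 and 2) of wild-type adult mice without tumours. Genotype and time after infection cannot be told apart between the tumour groups, and the labels name neither the cell type that took up the virus nor separate mice for the arrays. P-values therefore measure the spread between these samples, which may be technical in part.

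Neuropeptides are cut from longer precursors. In the secretory granules of neuroendocrine cells, convertases such as Pcsk1 cleave the precursor, carboxypeptidase E trims the ends, and the finished peptide is stored and released to act on G protein-coupled receptors. In the lung, scattered pulmonary neuroendocrine cells make calcitonin gene-related peptide and, in humans, bombesin-like peptides, and bombesin-like peptides are known as growth factors for human small cell lung cancer cells. An array measures precursor mRNA and says nothing of the peptide itself.

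Values are log2 expression levels, on which a difference of 1 is a doubling, and levels of different probe sets cannot be set against each other. Levels at or below 5.05, the highest of the arrays' lower quartiles, were treated as a floor, below which no fold change is given. Array medians lay between 6.58 and 6.68. The neuroendocrine marker list (9 of 10 measured) averaged 10.57 to 10.58 per array in Rb/p53/p130 tumours, 10.33 to 11.22 in Rb/p53 tumours and 5.35 to 5.61 in normal lungs, so the tumours carried the labelled neuroendocrine character. Markers of hepatocytes, cells of another organ, averaged (6 of 6 measured) 10.58 in Rb/p53/p130 tumour 12 and 7.89 in Rb/p53 tumour 2, against at most 5.95 in any other array. Differences between groups were tested with limma in 1 fit over all 3 groups, with Benjamini-Hochberg adjustment over all 45037 probe sets and a call at an adjusted p under 0.05.

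Promoters of 3 of the genes are shown because they set 1 gene that was high in every tumour (Resp18) and 1 that was high in some tumours (Cartpt) beside 1 whose levels overlapped with lung (Sst). They come from RefSeq (build GRCm38.p6, all on the minus strand), run 250 bases before to 50 bases after the annotated start, and hold in capitals each match on either strand to TGACGTCA, the cAMP response element through which CREB acts, or to the E-boxes CAGCTG and CAGATG, the kind of site that basic helix-loop-helix factors bind.
Resp18, chr1:75278366-75278665: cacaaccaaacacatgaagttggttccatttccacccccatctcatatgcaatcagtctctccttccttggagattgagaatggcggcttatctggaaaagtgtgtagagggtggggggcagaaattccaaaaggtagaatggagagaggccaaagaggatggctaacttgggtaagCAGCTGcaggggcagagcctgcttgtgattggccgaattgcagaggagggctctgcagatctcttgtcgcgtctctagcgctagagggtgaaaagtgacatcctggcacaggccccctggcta
Cartpt, chr13:99900634-99900933: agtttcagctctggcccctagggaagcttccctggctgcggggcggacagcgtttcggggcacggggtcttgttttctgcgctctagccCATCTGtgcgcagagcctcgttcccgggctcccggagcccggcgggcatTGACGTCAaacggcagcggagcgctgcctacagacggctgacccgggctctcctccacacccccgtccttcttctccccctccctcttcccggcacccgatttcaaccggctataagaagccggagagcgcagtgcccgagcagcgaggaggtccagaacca
Sst, chr16:23890795-23891094: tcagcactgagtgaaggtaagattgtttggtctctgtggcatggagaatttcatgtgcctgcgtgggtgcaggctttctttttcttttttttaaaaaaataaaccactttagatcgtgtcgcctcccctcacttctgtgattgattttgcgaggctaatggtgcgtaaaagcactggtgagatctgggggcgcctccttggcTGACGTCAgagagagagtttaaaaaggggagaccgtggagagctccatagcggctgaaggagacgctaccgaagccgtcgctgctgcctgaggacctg
The full cAMP response element stood 112 bases before the start of Cartpt and 48 bases before that of Sst, and it occurs in 1.79% of 32851 mouse promoters of this length. The Resp18 window held CAGCTG 73 bases before the start, a sequence present in 16.3% of promoters, and the Cartpt window held CAGATG on the opposite strand 161 bases before the start, a sequence present in 17.2%. Promoters of 7 of the 9 measured genes were in the table, and only Cartpt and Sst among them held the full element. The shorter half-element TGACG, which lies within the full one and occurs in 20.8% of promoters, was also present in Gal and Tac1. A match is a string of letters and not a measured binding site.

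Of the 9 measured genes, 2 (Resp18 and Calcb, or 22.2%) were higher in Rb/p53/p130 tumours than in normal lung and 0 were lower, where limma called 15.3% of all genes higher and 15.6% lower. The same 2 were higher in Rb/p53 tumours than in normal lung and 0 were lower, beside 18.3% and 20.5% of all genes. These shares are near the background, so the list as a whole did not stand apart, and the comparisons with lung share the 2 lung arrays. Between the tumour genotypes limma called 0 of the 9, beside 0.022% of all genes higher and 0.0495% lower, and 1 (Gal) had an unadjusted p under 0.05, while the exact rank-sum test gave 0. The median change over the 9 genes was 1.23 in Rb/p53/p130 tumours and 0.22 in Rb/p53 tumours, both against normal lung, and 0.00 between genotypes, where all genes had medians of -0.02, -0.02 and 0.01. The listed genes fell into 3 kinds: Resp18 and Calcb, above lung in every tumour; Cartpt and Grp, high in some tumours and at lung level in others; and Npy, Nmb, Sst and Tac1, with values close to those of lung in most tumours. Gal varied among the tumours of both genotypes. Of all genes, 32.8% had every Rb/p53/p130 tumour above both lungs and 33.2% every one below, and 18.2% had every Rb/p53 tumour above both lungs and 20.2% every one below, so separation from the 2 lungs was common.

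**Figure D1:**
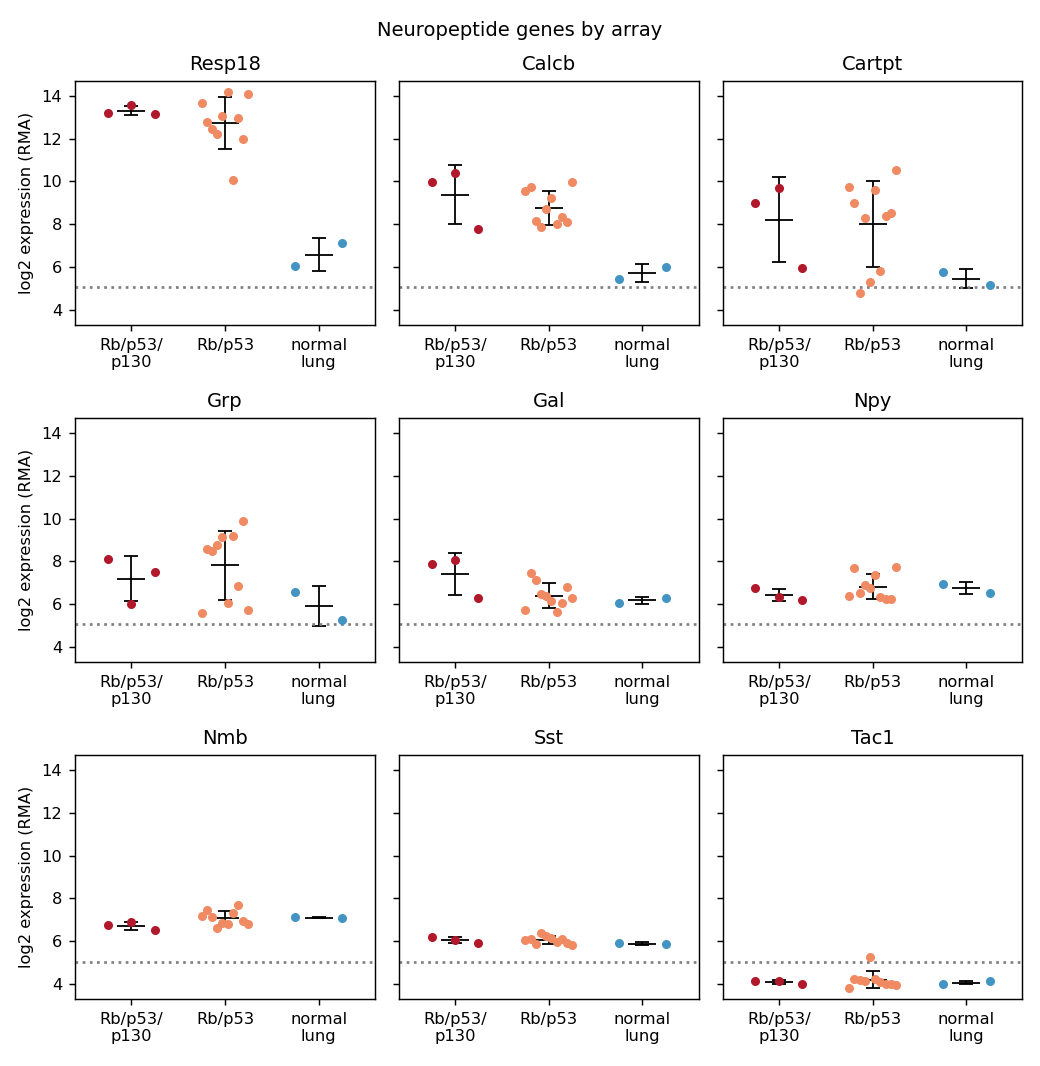
Log2 expression of the 9 measured neuropeptide genes on each array (points) with the mean and SD of each group (bars), for 3 Rb/p53/p130 tumours, 10 Rb/p53 tumours and 2 normal lungs. The dotted line marks the floor of 5.05. Resp18 and Calcb lie above the lung arrays in all 13 tumours, and Cartpt and Grp spread over several log2 units within the Rb/p53 tumours.

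Resp18 (regulated endocrine-specific protein 18, a granule protein of neuroendocrine cells and not itself a known hormone) had the largest change of the 9 against normal lung in both tumour groups. Its probe set 1417988_at read 13.19, 13.58 and 13.17 in Rb/p53/p130 tumours 11, 12 and 13, from 10.06 to 14.18 with a median of 12.86 in Rb/p53 tumours, and 6.03 and 7.12 in the normal lungs. No tumour overlapped with lung, and the lowest tumour was Rb/p53 tumour 7. Resp18 rose by 6.73 ± 0.89 (SE) over normal lung in Rb/p53/p130 tumours, or 106-fold (limma adjusted p = 5.65e-05, 3 against 2 arrays). In Rb/p53 tumours against normal lung it rose by 6.16 ± 0.76, or 71.5-fold (limma adjusted p = 1.9e-05, 10 against 2 arrays). In bulk tissue more cells of a type and more RNA per cell cannot be told apart. Between genotypes the difference was 0.57 (95% interval -0.80 to 1.95, limma adjusted p = 0.838), and their arrays overlapped.

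Calcb encodes the beta form of calcitonin gene-related peptide, a vasodilator of sensory nerves and neuroendocrine cells that acts on the receptor Calcrl with its partner Ramp1. Calcb (probe set 1422639_at) read 9.98, 10.39 and 7.79 in Rb/p53/p130 tumours 11, 12 and 13, from 7.88 to 9.98 with a median of 8.52 in Rb/p53 tumours, and 5.43 and 6.00 in normal lungs. Every tumour was above both lungs, and tumour 13 was the lowest of all 13 tumours. The rise over normal lung was 3.67 ± 0.75 in Rb/p53/p130 tumours, or 12.7-fold (limma adjusted p = 0.00212), and 3.05 ± 0.64 in Rb/p53 tumours, or 8.30-fold (limma adjusted p = 0.00178). The genotypes differed by 0.62 (95% interval -0.54 to 1.78, limma adjusted p = 0.778). Tumour 13 weighed on these values: without it the Calcb rise of the Rb/p53/p130 tumours over lung was 4.47 (limma adjusted p = 0.000296) and the difference between genotypes 1.42 (limma adjusted p = 0.564).

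The Resp18 and Calcb calls held with each array left out in turn, but not with a measure of RNA integrity as a covariate. The difference between the 3' and 5' control probe sets of Gapdh was -0.03 to 0.08 in Rb/p53/p130 tumours, -0.07 to 0.36 in Rb/p53 tumours, and 0.72 and 0.88 in normal lungs. Since the lungs lay apart from all tumours in this measure, it and the tissue cannot be told apart. With it in the fit the Resp18 change was 6.06 in Rb/p53/p130 tumours (limma adjusted p = 0.126) and 5.52 in Rb/p53 tumours (limma adjusted p = 0.123), both against normal lung. The Calcb change was then 2.99 (limma adjusted p = 0.401) and 2.40 (limma adjusted p = 0.45). Without tumours 12 and 2, the pair highest in hepatocyte markers, the calls held: Resp18 was higher than in lung by 6.60 (limma adjusted p = 0.000753) in Rb/p53/p130 tumours and by 6.16 (limma adjusted p = 0.000112) in Rb/p53 tumours, and Calcb by 3.17 (limma adjusted p = 0.0111) and 2.94 (limma adjusted p = 0.00234).

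Cartpt encodes the precursor of CART, a peptide of hypothalamic and endocrine cells named for its induction by cocaine and amphetamine in rat brain. Its probe set 1422825_at read 9.00, 9.69 and 5.94 in Rb/p53/p130 tumours 11, 12 and 13, from 4.78 to 10.55 with a median of 8.46 in Rb/p53 tumours, and 5.78 and 5.14 in normal lungs. Rb/p53 tumours 3, 5 and 7 lay between 4.78 and 5.80, within or near the lung range, and the other 7 between 8.29 and 10.55, with an empty stretch of 2.49 between them. The SD among Rb/p53 tumours, 2.00, exceeded that of 99.8% of the 18193 genes. The mean difference from normal lung was not called in the limma fit. It was 2.75 ± 1.59 in Rb/p53/p130 tumours (limma adjusted p = 0.242) and 2.54 ± 1.35 in Rb/p53 tumours (limma adjusted p = 0.176). The genotypes differed by 0.21 (95% interval -2.25 to 2.67, limma adjusted p = 0.976). With the Gapdh difference as a covariate the Cartpt change against lung turned to -1.10 in Rb/p53/p130 tumours (limma adjusted p = 0.917) and -1.12 in Rb/p53 tumours (limma adjusted p = 0.901).

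Grp encodes gastrin-releasing peptide, the mammalian bombesin and a growth factor for human small cell lung cancer cells. Its probe set 1424525_at read 8.09, 6.01 and 7.48 in Rb/p53/p130 tumours 11, 12 and 13, from 5.58 to 9.88 with a median of 8.53 in Rb/p53 tumours, and 6.56 and 5.25 in normal lungs. Rb/p53 tumours 1, 6, 8 and 10 lay between 5.58 and 6.83, about the lung range, and the other 6 between 8.49 and 9.88, with a gap of 1.66. The SD of 1.61 exceeded that of 99.4% of genes. The difference from normal lung was 1.29 ± 1.24 in Rb/p53/p130 tumours (limma adjusted p = 0.51) and 1.92 ± 1.05 in Rb/p53 tumours (limma adjusted p = 0.188), and the genotypes differed by -0.63 (95% interval -2.53 to 1.28, limma adjusted p = 0.88). The 2 lungs differed in Grp by 1.32, and the values rest on both: without lung 1 the changes were 1.95 (limma adjusted p = 0.501) and 2.58 (limma adjusted p = 0.256), and without lung 2 they were 0.63 (limma adjusted p = 0.857) and 1.26 (limma adjusted p = 0.621). Neither difference from lung in Grp was thus called. The 95% intervals were wide, from -1.35 to 3.93 in Rb/p53/p130 tumours and from -0.32 to 4.16 in Rb/p53 tumours. The 6 high Rb/p53 tumours, picked by these same values, and tumour 8, at 6.83, each lay above both lungs.

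The tumours low in Grp and those low in Cartpt were different ones. Among the 10 Rb/p53 tumours 3 (2, 4 and 9) lay in the upper range of both genes, 3 (3, 5 and 7) in that of Grp alone, 4 (1, 6, 8 and 10) in that of Cartpt alone, and 0 in neither. Rb/p53/p130 tumour 12 likewise had Cartpt at 9.69 with Grp at 6.01. Tumour 13 had Cartpt at 5.94 with Grp at 7.48, and tumour 11 had 9.00 and 8.09. The Grp levels of tumours 11 and 13 lay in the stretch that the Rb/p53 tumours left empty, between 6.83 and 8.49. They thus belong to neither Grp range, and Cartpt in tumour 13 lay just above its lower range, which ended at 5.80. The 3 highest Resp18 levels, 14.18, 14.08 and 13.68 in Rb/p53 tumours 6, 10 and 1, were all in tumours low in Grp. Autonomic neuron markers, which some of these peptides share, averaged 5.88 to 6.40 per array in Rb/p53/p130 tumours, 5.95 to 7.19 in Rb/p53 tumours and 5.84 to 5.95 in normal lungs (7 of 8 measured). This mean hides single markers, named after their values were seen. Prph was 7.45-fold higher in Rb/p53 tumours than in lung (limma adjusted p = 0.00906), and Slc6a2 2.06-fold lower (limma adjusted p = 0.00242). Th read 9.36, 8.33 and 7.79 in Rb/p53 tumours 8, 10 and 1, and Prph 10.21, 9.66 and 9.85, the highest levels of each. Rb/p53 tumour 6, also low in Grp, read 6.23 and 8.69. The Grp and Cartpt ranges were read from those genes' own values and carry no test, and the part of other cells in them was not tested.

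**Figure D2:**
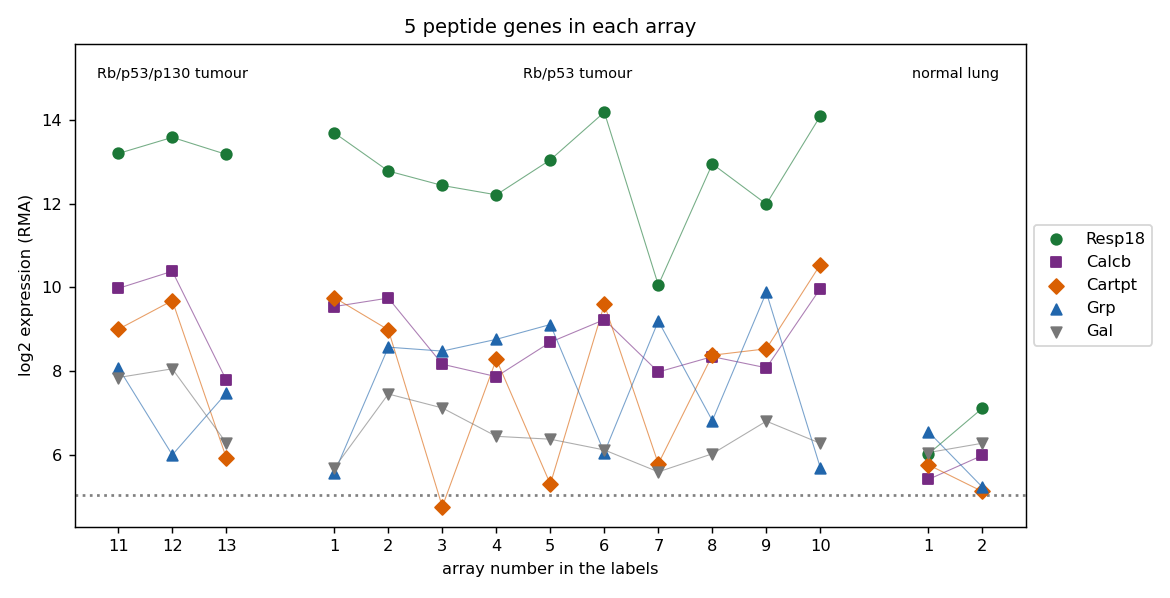
Log2 expression of Resp18, Calcb, Cartpt, Grp and Gal on each array, with Rb/p53/p130 tumours 11 to 13, Rb/p53 tumours 1 to 10 and normal lungs 1 and 2 from left to right. Thin lines only join the points of a gene, and the dotted line is the floor of 5.05. Cartpt is near lung level in tumours 3, 5, 7 and 13, and Grp in tumours 1, 6, 8, 10 and 12.

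Correlations across the 10 Rb/p53 tumours were computed for 45 pairs (36 pairs of the 9 genes, and each gene with the neurogenic factor Neurod1), and p-values were adjusted over all 45. No coefficient is given for the 17 pairs with Grp or Cartpt, whose values fall into separate ranges. Of the other 28 none passed Benjamini-Hochberg adjustment, while 3 by Pearson's r and 1 by Spearman's rho had a permutation p under 0.05. Calcb and Resp18 went together at r = 0.73 (permutation p = 0.0109, adjusted p = 0.163) and rho = 0.79 (permutation p = 0.0085, adjusted p = 0.191), and r was 0.78 without the 2 tumours farthest from the median of Calcb. Calcb and Npy had r = 0.72 (permutation p = 0.023, adjusted p = 0.259) and rho = 0.59 (permutation p = 0.0807, adjusted p = 0.493), but r was 0.33 without such a pair of tumours, on which the relation rests. Neurod1 lay below the floor in 9 of the 10 tumours, so its coefficients are not described.

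Among 661 genes whose SD over the 10 Rb/p53 tumours was at least 1, those most like each variable gene of the list were found by Pearson's r. Grp was most like Igfbp2 (0.90), which binds insulin-like growth factors, then Bmp8b (0.88), a bone morphogenetic protein, and Klhl41 (0.83). Cartpt was most like Tenm1 (0.90), a teneurin of neural connections, Ptchd4 (0.87) and the transcriptional cofactor Lmo2 (0.86). Resp18 was most like the transporters Abca5 (0.94) and Slc6a20a (0.93) and the inflammasome gene Naip2 (0.93). These coefficients describe 10 arrays and are the highest of many. Since Grp and Cartpt fall into separate ranges, theirs can follow from a like split of the tumours and show no graded relation. Those of Resp18 may rest in part on its low value in tumour 7, which was not tested.

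Gal encodes galanin, a peptide of neurons and endocrine cells. Its probe set 1460668_at read 7.86, 8.06 and 6.30 in Rb/p53/p130 tumours 11, 12 and 13, from 5.61 to 7.46 with a median of 6.34 in Rb/p53 tumours, and 6.07 and 6.29 in normal lungs. Tumours 11 and 12 were above every Rb/p53 tumour, tumour 13 was level with the higher lung, and Rb/p53 tumours 2, 3 and 9, at 7.46, 7.13 and 6.82, also lay well above both lungs. The difference between genotypes was 1.00 ± 0.39 (unadjusted p = 0.0226, limma adjusted p = 0.389), and that from normal lung was 1.23 ± 0.55 in Rb/p53/p130 tumours (limma adjusted p = 0.121) and 0.22 ± 0.46 in Rb/p53 tumours (limma adjusted p = 0.765). Without tumour 13 the difference of Rb/p53/p130 tumours from lung was 1.78 (limma adjusted p = 0.0205), and with arrays weighted by their quality it was 1.46 (limma adjusted p = 0.0321), with 1.23 between genotypes (limma adjusted p = 0.0331). The highest tumour of each genotype, 12 and 2, was also the highest in hepatocyte markers; without them the genotypes differed in Gal by 0.79 (limma adjusted p = 0.864).

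Npy encodes neuropeptide Y, a peptide of sympathetic nerves. It read 6.75, 6.32 and 6.20 in Rb/p53/p130 tumours, from 6.24 to 7.73 with a median of 6.63 in Rb/p53 tumours, and 6.96 and 6.54 in normal lungs. The groups overlapped, with changes against normal lung of -0.33 ± 0.44 in Rb/p53/p130 tumours (limma adjusted p = 0.663) and 0.07 ± 0.38 in Rb/p53 tumours (limma adjusted p = 0.916). Only Rb/p53 tumours 2, 6 and 10, at 7.71, 7.34 and 7.73, lay above both lungs. Between genotypes the Npy difference was -0.40 (95% interval -1.08 to 0.29, limma adjusted p = 0.753).

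Nmb encodes neuromedin B, the second bombesin-like peptide of mammals. It read 6.74, 6.91 and 6.52 in Rb/p53/p130 tumours, from 6.63 to 7.68 with a median of 7.04 in Rb/p53 tumours, and 7.12 and 7.08 in normal lungs. All 3 Rb/p53/p130 tumours were below both lungs, by -0.37 ± 0.26 on average (limma adjusted p = 0.352), which did not pass, and the Rb/p53 tumours differed from lung by -0.02 ± 0.22 (limma adjusted p = 0.958). The genotypes differed by -0.35 (95% interval -0.76 to 0.06, limma adjusted p = 0.58).

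Sst encodes somatostatin, which inhibits the release of many hormones. It read 6.18, 6.07 and 5.93 in Rb/p53/p130 tumours, from 5.83 to 6.41 with a median of 6.07 in Rb/p53 tumours, and 5.93 and 5.86 in normal lungs. These groups overlapped and had narrow intervals: the change against normal lung was 0.16 (95% interval -0.18 to 0.51, limma adjusted p = 0.525) in Rb/p53/p130 tumours and 0.17 (95% interval -0.12 to 0.46, limma adjusted p = 0.395) in Rb/p53 tumours. Sst ranged over 0.58 in the Rb/p53 tumours and Cartpt over 5.77, on probe sets whose levels cannot be set against each other. Both of their promoters printed earlier hold the full cAMP response element, and its part in the level of either gene was not tested.

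Tac1 encodes the precursor of substance P. Its brighter probe set read 4.00 to 4.15 in Rb/p53/p130 tumours, 3.83 to 5.26 in Rb/p53 tumours, and 4.02 and 4.12 in normal lungs, all under the floor except Rb/p53 tumour 5 at 5.26. The second probe set read 3.86 to 4.22 in Rb/p53/p130 tumours, 3.86 to 4.18 in Rb/p53 tumours, and 4.23 and 4.40 in normal lungs. Neither was called in any comparison (limma adjusted p = 0.0969 or above), and no fold change is given at such levels.

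**Figure D3:**
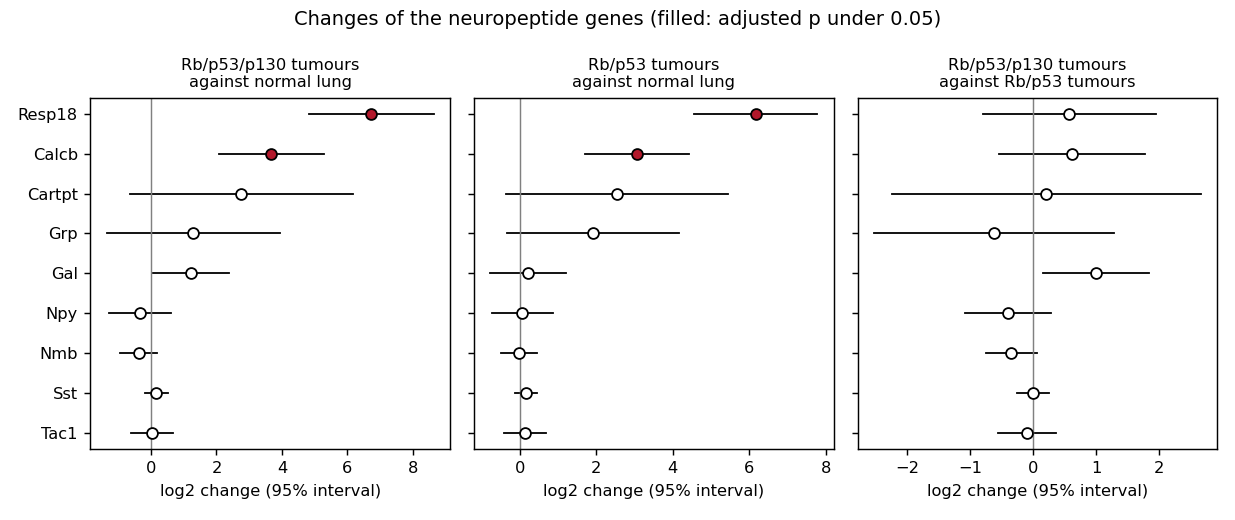
Log2 change of each neuropeptide gene (points) with its 95% interval from limma (lines) for Rb/p53/p130 tumours and for Rb/p53 tumours, each against normal lung, and for Rb/p53/p130 tumours against Rb/p53 tumours; filled points have an adjusted p under 0.05. Resp18 and Calcb are filled in both comparisons with lung and no gene is filled between genotypes, where the Cartpt and Grp intervals span more than 3 log2 units.

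Receptors for these peptides were measured for 23 of 24 listed genes. Against normal lung 3 were higher and 3 lower in Rb/p53/p130 tumours, and 3 higher and 3 lower in Rb/p53 tumours. Over all genes limma called 15.3% higher and 15.6% lower in Rb/p53/p130 tumours, and 18.3% and 20.5% in Rb/p53 tumours. Calls were thus no more frequent among the receptors than among all genes. Their median changes were -0.12 and -0.09, and between genotypes limma called 0. Npy1r and Npy5r, receptors of neuropeptide Y, and Sstr2, a receptor of somatostatin, were the 3 higher ones, though Npy and Sst themselves passed no test. Npy1r read 9.33 to 9.80 in Rb/p53/p130 tumours, 7.15 to 9.75 in Rb/p53 tumours, and 5.63 and 6.89 in normal lungs, a rise of 3.38 ± 0.64 (limma adjusted p = 0.0012) in Rb/p53/p130 tumours and of 2.53 ± 0.54 (limma adjusted p = 0.00217) in Rb/p53 tumours. Npy5r, below the floor in lung, was at least 6.66-fold higher in Rb/p53/p130 tumours (limma adjusted p = 0.0038) and at least 3.94-fold higher in Rb/p53 tumours (limma adjusted p = 0.00552). Sstr2 rose by 2.34 (limma adjusted p = 0.000905) and 1.70 (limma adjusted p = 0.00207) in the same comparisons.

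Calcrl, which takes part in the receptor for the Calcb peptide, was 19.9-fold lower in Rb/p53/p130 tumours (limma adjusted p = 0.00232) and 22.4-fold lower in Rb/p53 tumours (limma adjusted p = 0.000332) than in normal lung, and Ramp2, which turns Calcrl into an adrenomedullin receptor, was 18.2-fold (limma adjusted p = 0.000184) and 17.3-fold lower (limma adjusted p = 3.39e-05). Ramp1, named after its values were seen because it completes the receptor for the Calcb peptide, had changes of -0.96 (limma adjusted p = 0.518) and -1.24 (limma adjusted p = 0.265). Endothelial markers, of cells known to carry Calcrl and Ramp2, averaged 7.34 to 7.69 per array in Rb/p53/p130 tumours, 6.25 to 9.15 in Rb/p53 tumours and 11.48 to 12.07 in normal lungs, all 4 measured markers being lower in both comparisons; their part in these falls was not tested. The third lower receptor was Sstr4, by -2.09 (limma adjusted p = 2.76e-06) and -2.06 (limma adjusted p = 4.01e-07). Grpr, the receptor of the Grp peptide, averaged 4.84 in Rb/p53/p130 tumours, 4.82 in Rb/p53 tumours and 4.92 in normal lungs, under the floor in each. Nmbr, that of neuromedin B, averaged 5.26, 5.29 and 5.44 in the same groups, with no call (limma adjusted p = 0.441 and 0.423 against lung).

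Some genes of prohormone processing, enzymes as well as a chaperone and an inhibitor, were among the higher ones. Of 6 measured processing genes (7 listed), 4 were higher and 0 lower in each tumour group against normal lung, and limma called 0 between genotypes. Over all genes limma called 15.3% higher in Rb/p53/p130 tumours and 18.3% higher in Rb/p53 tumours. For these 4 genes every tumour lay above both lungs, as held for 32.8% of all genes in Rb/p53/p130 tumours and 18.2% in Rb/p53 tumours. Pcsk1, the convertase that cuts prohormones, was at least 118-fold higher in Rb/p53/p130 tumours (limma adjusted p = 1.57e-07) and at least 87.0-fold higher in Rb/p53 tumours (limma adjusted p = 3.74e-08). Scg5, the chaperone of the related convertase PC2, was at least 119-fold (limma adjusted p = 1.97e-07) and at least 136-fold higher (limma adjusted p = 1.95e-08). The convertase inhibitor Pcsk1n was 6.25-fold (limma adjusted p = 0.0325) and 9.53-fold higher (limma adjusted p = 0.00266), and Cpe 5.52-fold (limma adjusted p = 1.55e-06) and 4.72-fold (limma adjusted p = 5.07e-07). Pam, which amidates the ends of peptides such as those of Grp, Calcb and Npy, passed no test. Its changes against lung were 1.22 (limma adjusted p = 0.113) and 0.05 (limma adjusted p = 0.954). Pam read 11.92 to 12.28 in Rb/p53/p130 tumours, 9.75 to 11.89 in Rb/p53 tumours, and 10.21 and 11.62 in normal lungs, with no call between genotypes. Qpct passed none either, with changes of 1.46 (limma adjusted p = 0.364) and 0.58 (limma adjusted p = 0.674).

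Among 42 measured genes of other peptide hormones (52 listed), 1 was higher and 5 lower than in normal lung in Rb/p53/p130 tumours. In Rb/p53 tumours 2 were higher and 7 lower. Over all genes limma called 15.3% higher and 15.6% lower, and 18.3% and 20.5%, in the same comparisons. Calls were thus no more frequent here than among all genes. The median changes were -0.04 and 0.00, and limma called 0 between genotypes. Iapp had the largest change of the 42. It encodes amylin, a peptide of pancreatic beta cells whose gene is a relative of Calcb. Its brightest probe set read 12.10, 12.30 and 9.63 in Rb/p53/p130 tumours 11, 12 and 13, from 8.98 to 12.89 with a median of 11.67 in Rb/p53 tumours, and 5.26 and 5.08 in normal lungs. No tumour overlapped with lung. The rise was 6.17 ± 1.14, or 72.2-fold, in Rb/p53/p130 tumours (limma adjusted p = 0.000967) and 6.18 ± 0.97, or 72.6-fold, in Rb/p53 tumours (limma adjusted p = 0.000172). Of the 4 Iapp probe sets, 3 rose in both comparisons, by 5.57 to 6.17 and by 5.66 to 6.18; the fourth, 1456004_x_at, had 2.40 (limma adjusted p = 0.101) and 2.31 (limma adjusted p = 0.0522). Tumour 13 was the lowest Rb/p53/p130 tumour in Iapp, and likewise in each of the 9 measured neuropeptide genes except Grp, where tumour 12 was lowest. For Resp18 the margin was small, at 13.17 against 13.19 in tumour 11.

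Islet or gut endocrine markers, which would mark other amylin-making cells, were measured for 4 of 6 genes. Neurog3, the regulator of endocrine precursors, was the only 1 called in either comparison with lung: it averaged 10.42 ± 0.33 (SD, n = 3) in Rb/p53/p130 tumours, 10.09 ± 2.18 (n = 10) in Rb/p53 tumours and 5.15 ± 0.36 (n = 2) in normal lungs (limma adjusted p = 0.0232 and 0.0103 against lung). Ins2 averaged 6.71, 6.78 and 6.84 in these groups, Pdx1 5.44, 5.50 and 5.62, and Gcg 4.53, 3.93 and 3.79, the last under the floor in each group. The 4 markers averaged 6.64 to 6.96 per array in Rb/p53/p130 tumours, 5.56 to 7.21 in Rb/p53 tumours and 5.26 to 5.45 in normal lungs.

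Nppa and Edn1 had the deepest falls among the 42 other peptide genes. Nppa, the atrial natriuretic peptide, is known from heart muscle, which in mice also sheathes the pulmonary veins. It was at least 21.1-fold lower in Rb/p53/p130 tumours (limma adjusted p = 0.00204) and 15.6-fold lower in Rb/p53 tumours (limma adjusted p = 0.00178). Rb/p53 tumours 4 and 7 raised the mean behind the second fold, at 8.84 and 6.76, beside 9.88 and 9.01 in the lungs. The median of the Rb/p53 tumours, 4.96, was under the floor. Edn1, the vasoconstrictor endothelin made by endothelium, was 6.43-fold (limma adjusted p = 0.000197) and 6.13-fold lower (limma adjusted p = 3.88e-05), beside the endothelial marker levels given above. Penk, the enkephalin precursor, named after its values were seen, fell by 1.53 (limma adjusted p = 0.00337) and by 1.45 (limma adjusted p = 0.00111) on the log2 scale. Pomc, the second gene higher in Rb/p53 tumours and also named after its values were seen, rose by 0.53 ± 0.15 (limma adjusted p = 0.0141).

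**Figure D4:**
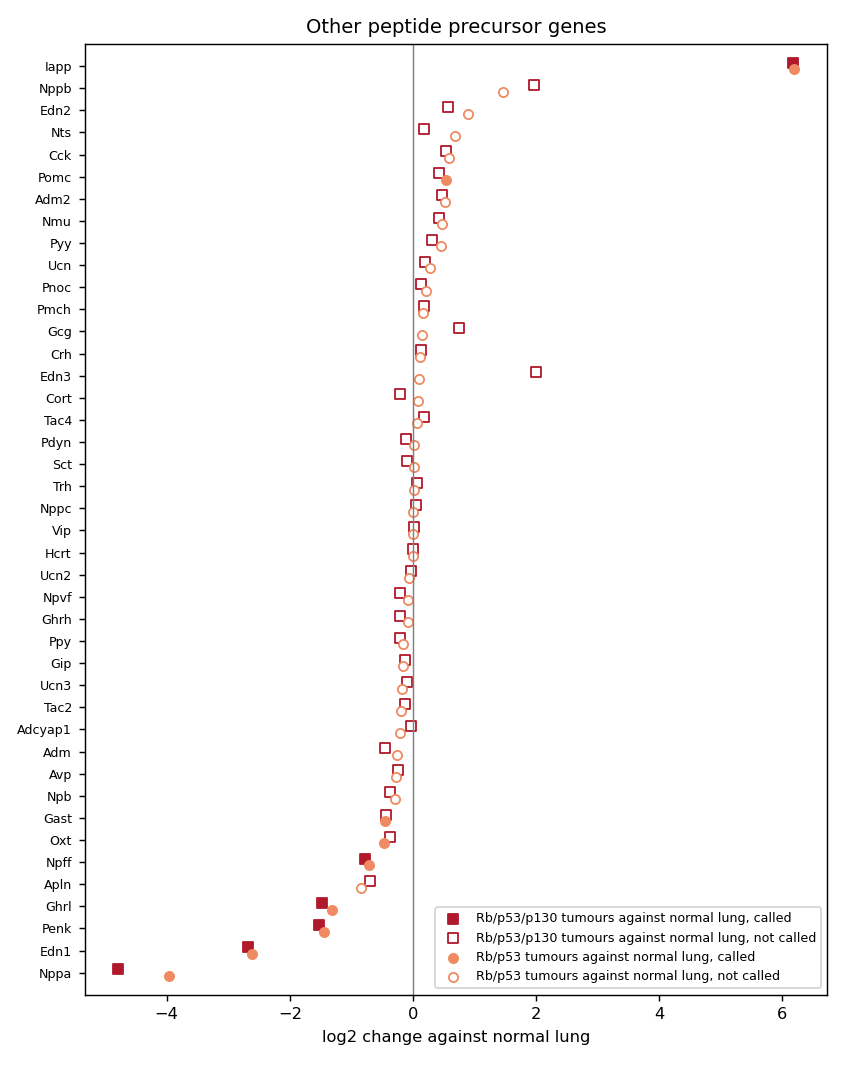
Log2 change against normal lung of 42 other peptide precursor genes, ordered by the change in Rb/p53 tumours, in Rb/p53/p130 tumours (squares) and Rb/p53 tumours (circles); filled symbols have a limma adjusted p under 0.05. Iapp stands near 6.17 and 6.18 and most other genes lie near 0, with Nppa and Edn1 lowest.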

How the data were processed

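The deposited values are log2 expression per probe set and array, made by RMA (version not given in the sources used here), per the submitters' processing notes. RNA was extracted with Trizol and amplified in 2 rounds, per the labels' protocols, which weights it towards 3' ends. RMA sets array distributions nearly equal, so a shift common to most genes is hidden. Of 45101 probe sets 64 controls were left out. A gene was read from its probe set with the highest mean. Changes, SE and intervals came from lmFit and eBayes of limma 3.58.1 (R 4.3.3). The fit was tested on simulated data. Members, gene lists and tests were chosen with earlier results of these data known. Besides members, Grpr and Nmbr, each of the receptor, processing and other peptide lists had its 3 called genes of largest absolute change named. Npy5r, Sstr2, Sstr4, Cpe and Pam were added after their values were seen, as were Prph, Slc6a2 and Th. Qpct was named as the remaining measured processing gene. Marker lists were given as means, with every measured islet or gut endocrine marker named. Insm1 and Chga, also planned by name, entered only the neuroendocrine mean. Replicate numbers are shared by tumours and lungs, but deviations from the group means correlated at -0.0043 and -0.0553 over 2 pairs, so the block is an alternative only. Correlations used 100000 permutations. Figures used matplotlib 3.10.9. No batch was named, and the number of arrays limits precision.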

Additional observations from a re-analysis of the deposited data

Results flagged for a closer look

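Resp18 in Rb/p53 tumour 7 read 10.06, apart from the other 9 Rb/p53 tumours by more than Dixon's critical value of 0.466 of the group's range allows. Tac1 in Rb/p53 tumour 5 read 5.26 on its brighter probe set and was flagged in the same way. Chance flags about 1 in 20 groups.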

How the results depend on the processing

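The Resp18 and Calcb rises kept their direction under every alternative that gives a change, and their call under all but the Gapdh covariate and the adjusted exact rank-sum test. Called probe sets numbered 11287 in Rb/p53/p130 tumours and 14464 in Rb/p53 tumours, each against normal lung, and 95 between genotypes. With the Gapdh covariate they numbered 1662, 1989 and 151, with 0 members called against lung in either tumour group. A change of at least 1 left 7348, 8095 and 57. The exact rank-sum test with adjustment called 0 probe sets and 0 members in each comparison; its smallest p without ties was 0.2, 0.0303 and 0.00699, so the first cannot reach 0.05. Between genotypes 61 were called among probe sets brighter than the median, 2674 with array weights (1 member, Gal), and 20 without the 2 tumours highest in hepatocyte markers, an alternative chosen after seeing the data. Leaving out 1 array gave 6903 (without normal lung 1) to 12009, 8990 (without normal lung 1) to 14813, and 17 (without tumour 11) to 172 (without Rb/p53 tumour 8). The replicate block gave 7440 probe sets and 3 members in Rb/p53 tumours against lung, with a Cartpt change of 3.92 (limma adjusted p = 0.00352). Only Rb/p53 tumours 1 and 2 share a number with a lung, so each change with the block rests on these tumours alone. Both were high in Cartpt, at 9.76 and 8.99, and the low tumours 3, 5 and 7 add nothing to that change. No paired analysis of the Rb/p53/p130 tumours was possible because they share no number with the other groups. Reversed signs occurred only for changes that were not called. With the Gapdh covariate, against lung, Cartpt was -1.10 in Rb/p53/p130 tumours and -1.12 in Rb/p53 tumours, Tac1 -0.23 and -0.12, and in Rb/p53 tumours Npy was -0.19 and Nmb 0.12. With the block, which rests on Rb/p53 tumours 1 and 2, Tac1 was -0.0334 and Nmb 0.22 against lung. With its probe sets averaged Tac1 was -0.10 and -0.0608 against lung. Between genotypes Sst was 0.0225 after quantile normalisation and 0.0284 after median centring. Without the 2 hepatocyte-marker tumours Npy was -0.0295 in Rb/p53 tumours against lung, and between genotypes Grp was 0.0495 and Cartpt -0.42. Leaving out 1 array moved the difference between genotypes from -0.53 to 1.35 for Cartpt, -0.0633 to 0.0618 for Sst and -0.14 to 0.0191 for Tac1. It moved the change in Rb/p53 tumours against lung from -0.14 to 0.28 for Npy and -0.0879 to 0.0283 for Nmb, and that of Tac1 in Rb/p53/p130 tumours from -0.0206 to 0.0823. Apart from the covariate, which tissue carries, the cause was not tested.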
